A study of Mus musculus with 24 samples.

Results

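Arg2, Ass1, Asl, Gatm, Gamt, Oat, Odc1, Sat1, Srm and Agmat encode enzymes that make, split or pass on arginine, creatine and polyamines. These 10 genes were found by symbol among 55416 gene IDs of mouse kidney RNA-seq libraries. They were chosen by name with earlier results of the same libraries known, so their levels and their differences between groups are given as a description, without a p-value for any of them. The RNA came from kidneys of 24 mice in 4 groups of 6, called biological replicates in the labels. The groups are PolgD257A with B-IRI (the labels' name for the ischemia reperfusion injury surgery), PolgD257A with sham surgery, Polg+/+ with B-IRI and Polg+/+ with sham surgery. Polg encodes the catalytic subunit of the polymerase that copies mitochondrial DNA, and D257A removes its proofreading activity in every cell that carries it. The Polg+/+ mice were littermates, and the stated question is how mitochondrial DNA mutations add to injury after ischemia and reperfusion. The number of D257A alleles, strain, sex, age and the time between surgery and sampling are not stated by the labels, and no batch was named.

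The kidney is a main site of arginine synthesis in mammals. Cells of the proximal tubule take up citrulline, join it to aspartate through argininosuccinate synthase (Ass1) and release arginine through argininosuccinate lyase (Asl). Arginine then feeds several routes. Glycine amidinotransferase (Gatm) uses it for guanidinoacetate, which guanidinoacetate methyltransferase (Gamt) turns into creatine. Arginase 2 (Arg2), a mitochondrial enzyme, splits it into urea and ornithine. Ornithine aminotransferase (Oat) links ornithine with proline and glutamate, while ornithine decarboxylase (Odc1) turns it into putrescine, the first polyamine. Agmatinase (Agmat) is annotated to make putrescine from agmatine. Spermidine synthase (Srm) extends putrescine to spermidine, and spermidine/spermine acetyltransferase (Sat1) starts the way back by acetylating spermidine and spermine.

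Depth ran between 16689284 and 26341004 gene-assigned reads per library, and was lowest in the sham Polg+/+ group, at 19737994 reads or fewer. Values are normalized counts, that is, reads per gene divided by 1 size factor per library. Havcr1, which encodes the tubule injury marker KIM-1, averaged 31950 normalized counts in B-IRI PolgD257A kidneys and 171 in sham PolgD257A kidneys, and 14321 in B-IRI Polg+/+ kidneys and 143 in sham Polg+/+ kidneys. Polg itself lay between 997 and 1232 normalized counts in all 24 libraries. A gene-level count does not show a single-base change, so this says nothing about the genotype labels. All 16 markers of the proximal tubule, the kidney segment that makes arginine, were detected in every group. A gene is called here when limma gives it an adjusted p under 0.05 among 17430 genes tested. For a member, a call says only that its fit passed this threshold and is no independent evidence. All 10 members entered the fit. They did so through every group, since the lowest value of any member in any library was 18.3 normalized counts (Agmat), above the minimum of 10.

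After B-IRI the arginine-making and creatine-making enzyme genes were lower than after sham surgery, while Arg2, Srm and Sat1 were higher. In PolgD257A kidneys 3 members were called higher and 6 lower, against 30.2% called higher and 30.3% called lower among all genes tested. In Polg+/+ kidneys 3 were called higher and 5 lower, against 21.4% and 19.8% of all genes. The median log2 fold change of the 10 members was -0.96 in PolgD257A and -0.42 in Polg+/+ kidneys, where the median of all genes tested was -0.0011 and -0.0082. Oat was called in neither genotype and Agmat only in PolgD257A kidneys. All 6 B-IRI libraries lay outside the range of the 6 sham libraries for 8 members in PolgD257A (3 above and 5 below) and for 5 in Polg+/+ (2 above and 3 below). The share of all genes with such a separation was 36.2% in PolgD257A and 20.2% in Polg+/+. Since these contrasts were known when the members were chosen, nothing is read from the counts against the background.

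Promoter sequence is shown for 4 members whose changes the results turn on, so that genes that were lower can be set beside one that was higher. The windows run from 250 bases before to 50 bases after the RefSeq start of the gene on GRCm38.p6, on the strand of the gene. They were available for 7 of the 10 members (Ass1, Gatm, Gamt, Agmat, Oat, Odc1 and Sat1). Ass1, Gatm and Gamt were lower after B-IRI and Sat1 was higher. Capitals mark the E-box CACGTG, the one match among 5 motifs searched.
Ass1: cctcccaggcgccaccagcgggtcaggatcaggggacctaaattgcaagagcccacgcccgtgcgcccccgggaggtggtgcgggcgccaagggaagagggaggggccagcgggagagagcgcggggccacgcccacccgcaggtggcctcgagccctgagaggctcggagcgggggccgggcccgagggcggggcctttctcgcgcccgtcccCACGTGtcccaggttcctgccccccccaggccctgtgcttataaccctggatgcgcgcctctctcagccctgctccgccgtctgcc
Gatm: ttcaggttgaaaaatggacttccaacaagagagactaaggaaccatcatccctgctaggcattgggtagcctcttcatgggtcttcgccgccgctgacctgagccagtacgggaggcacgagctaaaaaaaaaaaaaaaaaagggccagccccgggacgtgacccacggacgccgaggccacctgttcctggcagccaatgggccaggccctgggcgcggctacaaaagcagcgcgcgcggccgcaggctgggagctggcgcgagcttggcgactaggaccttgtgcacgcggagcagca
Gamt: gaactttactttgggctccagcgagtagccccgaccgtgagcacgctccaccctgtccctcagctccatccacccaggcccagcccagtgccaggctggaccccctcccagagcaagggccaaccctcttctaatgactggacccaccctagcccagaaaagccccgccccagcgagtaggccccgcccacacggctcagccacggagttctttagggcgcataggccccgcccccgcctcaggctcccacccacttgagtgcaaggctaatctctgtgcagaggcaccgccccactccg
Sat1: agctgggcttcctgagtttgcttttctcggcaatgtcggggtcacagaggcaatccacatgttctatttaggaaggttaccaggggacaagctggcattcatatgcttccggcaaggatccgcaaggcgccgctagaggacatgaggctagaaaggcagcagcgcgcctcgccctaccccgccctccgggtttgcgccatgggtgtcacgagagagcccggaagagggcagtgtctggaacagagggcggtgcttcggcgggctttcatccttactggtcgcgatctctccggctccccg
The windows are chr2:31470020-31470319 on the plus strand (Ass1), chr2:122611228-122611527 on the minus strand (Gatm), chr10:80260963-80261262 on the minus strand (Gamt) and chrX:155216400-155216699 on the minus strand (Sat1). The letters searched on both strands were CACGTG for the E-box (a palindrome), CAAAGTCCA for an HNF4 core, GTTAAT for part of an HNF1 site, TATAAA for the TATA box and TGATGCAAT for a C/EBP-ATF element. The E-box in the Ass1 window begins 36 bases before the start. Of 32817 mouse promoter windows of the same length 7.15% hold the E-box, 0.475% the HNF4 core, 7.1% the HNF1 part, 13.6% the TATA box and 0.192% the C/EBP-ATF element. The other windows of the 7 members hold none of these strings. The printed windows have a GC content of 74% (Ass1), 60.7% (Gatm), 66% (Gamt) and 60.3% (Sat1), against a median of 52.7% over all windows. A match is a string of letters and no evidence of binding.

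**Figure D1:**
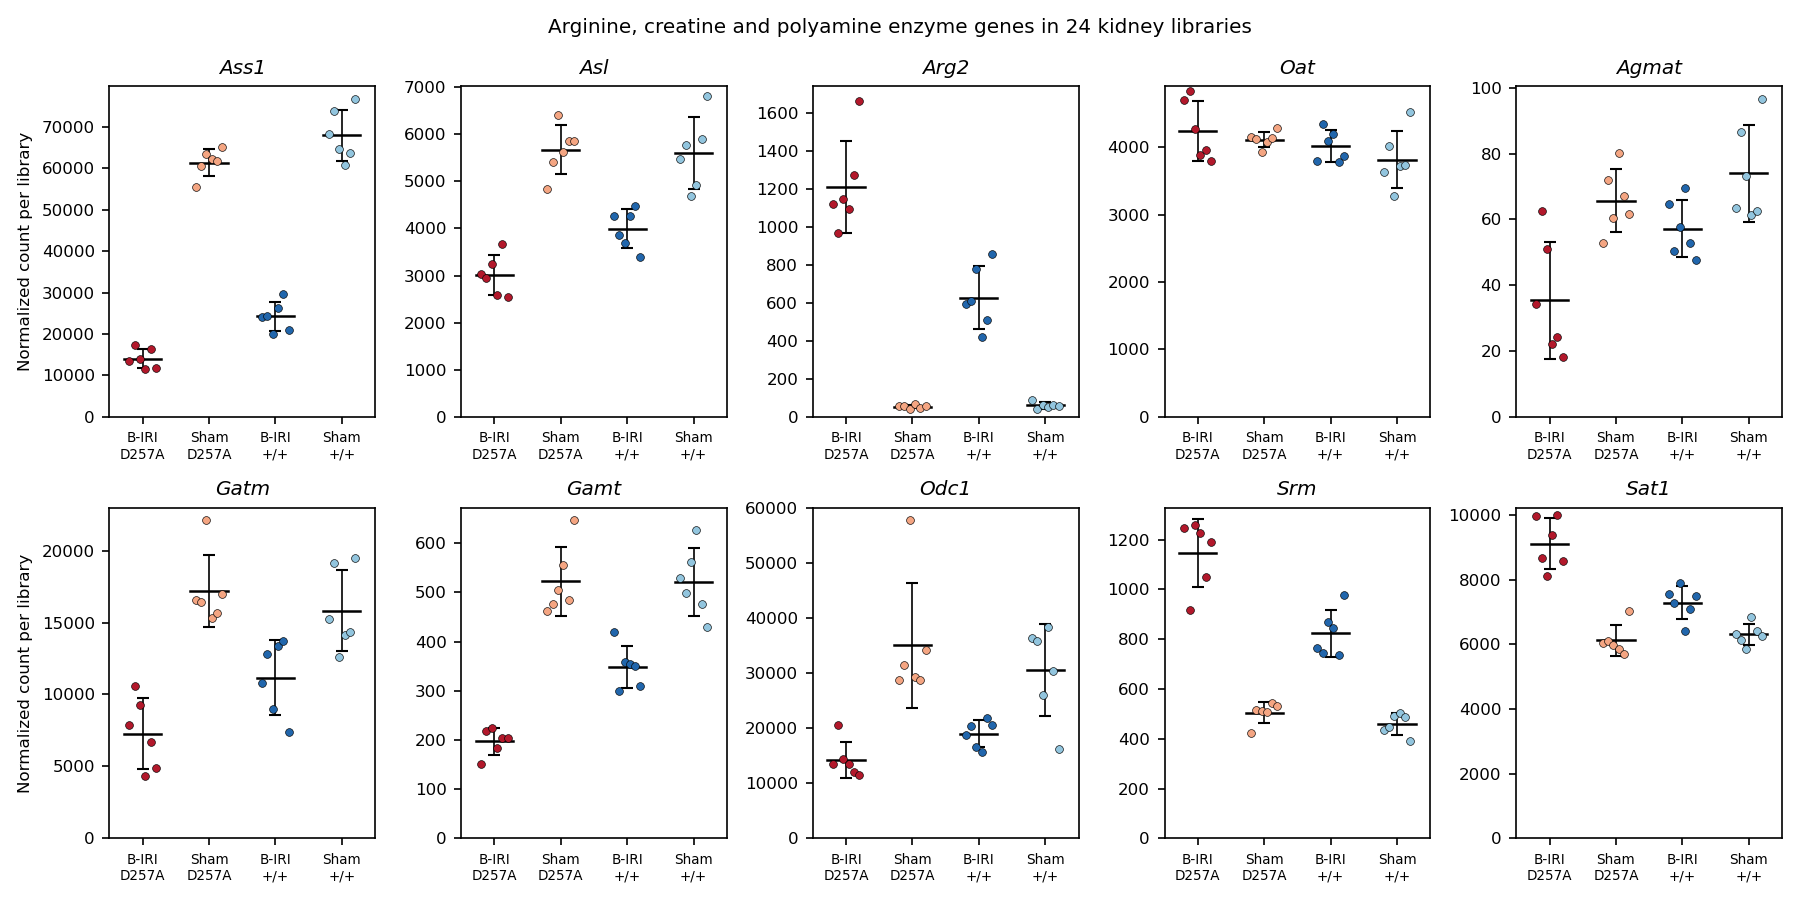
Normalized count of each of the 10 genes (y axis, linear from 0) in the 24 libraries by group (x axis; D257A is PolgD257A, +/+ is Polg+/+). Points are libraries, thick bars the mean of 6 and thin bars ± 1 SD. All B-IRI PolgD257A libraries lie below every other library for Ass1 and Gamt. They lie above every other library for Arg2 and Sat1, while all groups overlap for Oat.

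Ass1 (chr2:31470207-31520672, plus strand, GRCm38) was the most abundant member per length in every group. In B-IRI PolgD257A kidneys its normalized count had a lowest value of 11603, a median of 13686 and a highest of 17294, against 55539, 62020 and 65141 in sham PolgD257A kidneys. In B-IRI Polg+/+ kidneys the lowest, median and highest were 20127, 24221 and 29706, against 60738, 66541 and 76680 in sham Polg+/+ kidneys. No B-IRI library reached the lowest sham library, and the B-IRI libraries of the 2 genotypes did not overlap either. The fall was 4.42-fold in PolgD257A (log2 -2.14 ± 0.10, SE, n = 6 each) and 2.82-fold in Polg+/+ (log2 -1.50 ± 0.10). Folds here and below are on the scale of normalized count + 1.

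Asl (chr5:130011258-130029247, minus strand), the next enzyme of the same route, was also lower but by less. Its lowest, median and highest normalized counts were 2544, 2989 and 3676 in B-IRI PolgD257A kidneys, against 4847, 5747 and 6411 in sham PolgD257A kidneys. They were 3389, 4063 and 4477 in B-IRI Polg+/+ kidneys, against 4683, 5626 and 6813 in sham Polg+/+ kidneys. B-IRI and sham libraries did not overlap in either genotype. The log2 fold change was -0.92 ± 0.09 in PolgD257A and -0.48 ± 0.09 in Polg+/+. Counted per kilobase of exon, Ass1 stood 9.38 ± 1.18 times above Asl in B-IRI PolgD257A kidneys and 21.8 ± 1.12 times in sham PolgD257A kidneys (mean ± SD of within-library ratios, n = 6). The ratio was 12.1 ± 0.88 in B-IRI Polg+/+ and 24.5 ± 2.17 in sham Polg+/+ kidneys. The pair of genes therefore kept no fixed proportion, and the ratio in B-IRI kidneys stayed below that in sham kidneys in every library.

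Arg2 (chr12:79130777-79156301, plus strand) had the largest change of the 10 genes. Its normalized count had a lowest value of 967, a median of 1134 and a highest of 1664 in B-IRI PolgD257A kidneys, against 42.4, 56.1 and 69.6 in sham PolgD257A kidneys. The corresponding values were 420, 601 and 858 in B-IRI Polg+/+ kidneys, against 40.9, 58.2 and 90.6 in sham Polg+/+ kidneys. Every B-IRI library lay above every sham library, and every B-IRI PolgD257A library above every B-IRI Polg+/+ library. Arg2 was 21.9-fold higher after B-IRI in PolgD257A (log2 4.45 ± 0.17) and 10.3-fold higher in Polg+/+ (log2 3.36 ± 0.17). It overlaps Vti1b and Gm48780 on the opposite strand, and without knowing whether counting used the strand their reads cannot be told apart from those of Arg2. Per kilobase Arg2 was the least abundant member in sham kidneys, with 38.1 ± 6.86 in PolgD257A and 42.2 ± 11.7 in Polg+/+. In B-IRI PolgD257A kidneys it reached 848 ± 170 per kilobase, sixth of 10 and above Asl with 622 ± 87.5. In B-IRI Polg+/+ kidneys Arg2, with 440 ± 115 per kilobase, stayed below Asl with 826 ± 85.7.

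The distance between Ass1 and Arg2 shows these opposite changes within single libraries. Per kilobase, the ratio of Ass1 to Arg2 had a median of 7.14 in B-IRI PolgD257A kidneys (range 4.18 to 10.6) and 657 in sham PolgD257A kidneys (528 to 885). The median was 23.8 in B-IRI Polg+/+ kidneys (14.5 to 36.9) and 659 in sham Polg+/+ kidneys (447 to 1068). The ratio separated all 4 groups except that the 2 sham groups overlapped. Because both counts come from the same library, its depth and scaling cancel in the ratio.

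**Figure D2:**
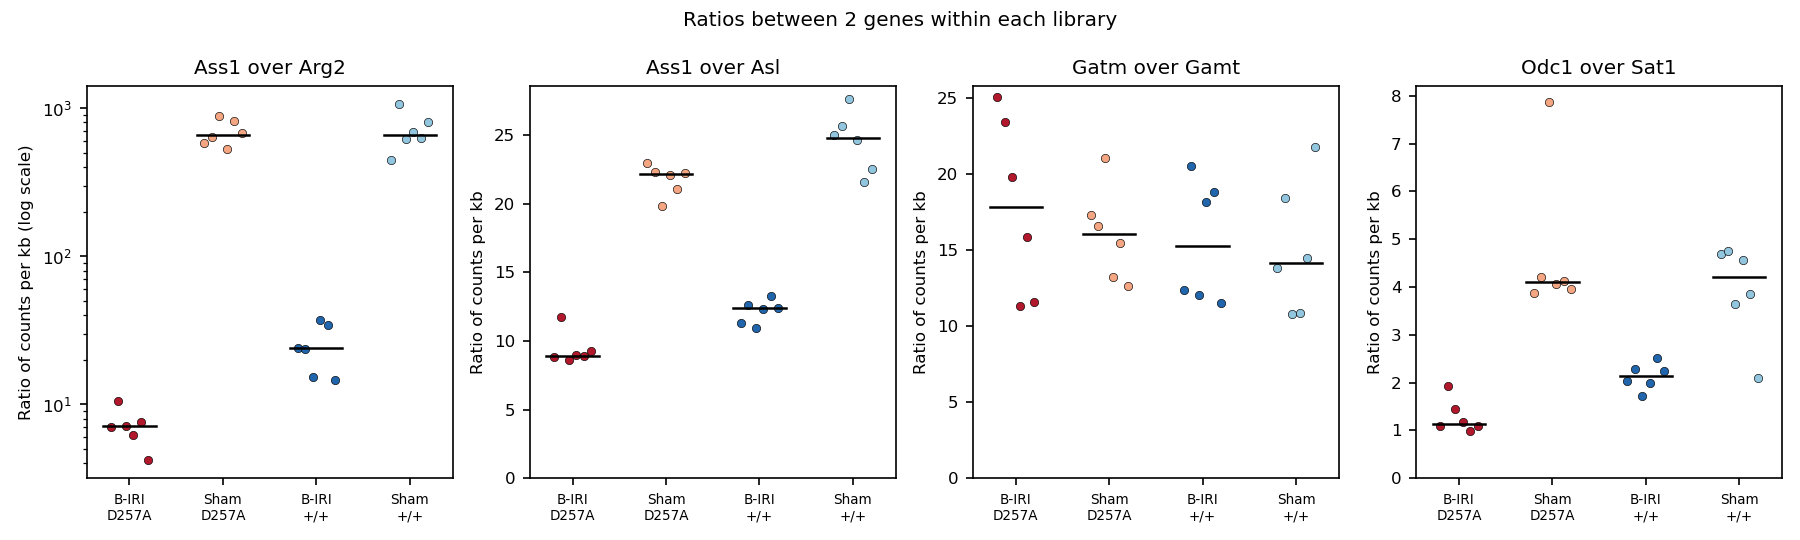
Within-library ratios of counts per kilobase for 4 pairs of genes (y axes; log scale for Ass1 over Arg2, linear from 0 for the others) by group (x axis). Points are libraries and bars medians; Ass1 over Arg2 has a median of 7.14 in B-IRI PolgD257A and 657 in sham PolgD257A kidneys, while Gatm over Gamt overlaps between all groups.

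Oat (chr7:132557478-132576398, minus strand) was not called in any comparison. Its lowest, median and highest normalized counts were 3793, 4118 and 4833 in B-IRI PolgD257A kidneys, against 3924, 4129 and 4287 in sham PolgD257A kidneys. They were 3780, 3986 and 4354 in B-IRI Polg+/+ kidneys, against 3274, 3731 and 4522 in sham Polg+/+ kidneys. All groups overlapped, and the log2 fold change after B-IRI was 0.04 ± 0.07 in PolgD257A and 0.08 ± 0.07 in Polg+/+. The genome annotation places part of Fgfr2 over Oat on the same strand. Agmat (chr4:141746672-141759263, plus strand) was the least abundant member per kilobase after B-IRI, and its counts were low. It had a lowest value of 18.3, a median of 29.3 and a highest of 62.6 normalized counts in B-IRI PolgD257A kidneys, against 53.0, 64.5 and 80.2 in sham PolgD257A kidneys. In Polg+/+ kidneys the values were 47.5, 55.3 and 69.7 after B-IRI, against 61.3, 68.4 and 96.6 after sham surgery. The groups overlapped in both genotypes, and B-IRI PolgD257A replicate 2, the highest of its group, lay within the sham range. The log2 fold change was -0.998 ± 0.21 in PolgD257A and -0.36 ± 0.21 in Polg+/+, where it did not pass.

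The creatine pathway was lower at both of its steps. Gatm (chr2:122594467-122611303, minus strand) had a lowest value of 4322, a median of 7291 and a highest of 10589 normalized counts in B-IRI PolgD257A kidneys, against 15304, 16528 and 22111 in sham PolgD257A kidneys. In Polg+/+ kidneys it had 7420, 11796 and 13720 after B-IRI, against 12603, 14795 and 19472 after sham surgery. The groups were separate in PolgD257A and overlapped in Polg+/+ kidneys. The log2 fold change was -1.30 ± 0.18 in PolgD257A and -0.52 ± 0.18 in Polg+/+. In Polg+/+ kidneys the call was lost under quantile normalization (log2 -0.35). It was also lost when B-IRI Polg+/+ replicate 3 or 6 or sham Polg+/+ replicate 2 or 6 was left out, with log2 fold changes of -0.46, -0.41, -0.46 and -0.45 in that order.

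Gamt (chr10:80258151-80261012, minus strand), the second enzyme, varied less between libraries. Its lowest, median and highest normalized counts were 151, 203 and 225 in B-IRI PolgD257A kidneys, against 462, 495 and 648 in sham PolgD257A kidneys. They were 299.7, 352 and 419 in B-IRI Polg+/+ kidneys, against 429, 514 and 627 in sham Polg+/+ kidneys. B-IRI and sham libraries were separate in both genotypes, as were the B-IRI libraries of the 2 genotypes. The log2 fold change was -1.40 ± 0.10 in PolgD257A and -0.58 ± 0.10 in Polg+/+. Per kilobase, Gatm exceeded Gamt 17.9 ± 5.87 times in B-IRI PolgD257A and 16.1 ± 3.06 times in sham PolgD257A kidneys. The ratio was 15.6 ± 4.04 in B-IRI Polg+/+ and 15.0 ± 4.36 in sham Polg+/+ kidneys. The within-library proportion of the 2 creatine genes thus overlapped between all 4 groups, unlike that of Ass1 and Asl.

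The polyamine genes split, with Odc1 lower and Srm and Sat1 higher after B-IRI. Odc1 (chr12:17544794-17551505, plus strand) had a lowest value of 11520, a median of 13461 and a highest of 20652 normalized counts in B-IRI PolgD257A kidneys, against 28776, 30429 and 57830 in sham PolgD257A kidneys. In Polg+/+ kidneys it had 15738, 19694 and 21815 after B-IRI, against 16189, 33117 and 38421 after sham surgery. The groups were separate in PolgD257A, while in Polg+/+ sham replicate 6 fell into the B-IRI range. The log2 fold change was -1.28 ± 0.18 in PolgD257A and -0.64 ± 0.18 in Polg+/+. In mouse kidney Odc1 is known to respond to androgens. Whether androgens had a part in its change was not tested. The female marker Xist was between 0 and 7.42 normalized counts and the Y-linked gene Ddx3y between 1104 and 1631 in the 24 libraries, so both genes, looked up after the Odc1 values were seen, put all libraries on the male side. Gm22748 overlaps Odc1 on the same strand.

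Srm (chr4:148591503-148594993, plus strand) had a lowest value of 917, a median of 1209 and a highest of 1259 normalized counts in B-IRI PolgD257A kidneys, against 422, 513 and 545 in sham PolgD257A kidneys. It had 738, 806 and 979.6 in B-IRI Polg+/+ kidneys, against 389.8, 467 and 504 in sham Polg+/+ kidneys. No B-IRI library overlapped the sham range, and Srm was 2.26-fold higher in PolgD257A (log2 1.18 ± 0.08) and 1.79-fold higher in Polg+/+ (log2 0.84 ± 0.08). Sat1 (chrX:155213132-155216449, minus strand) had 8134, 9029 and 10021 as lowest, median and highest in B-IRI PolgD257A kidneys, against 5717, 6018 and 7050 in sham PolgD257A kidneys. In Polg+/+ kidneys the values were 6432, 7397 and 7888 after B-IRI, against 5847, 6303 and 6863 after sham surgery. Sat1 libraries were separate in PolgD257A and overlapped in Polg+/+, with log2 fold changes of 0.57 ± 0.06 and 0.21 ± 0.06. Per kilobase, the ratio of Odc1 to Srm was 6.02 ± 2.25 in B-IRI PolgD257A and 32.7 ± 10.2 in sham PolgD257A kidneys. It was 11.0 ± 2.14 in B-IRI Polg+/+ and 31.0 ± 7.81 in sham Polg+/+ kidneys. Between the genes that start and that reverse polyamine synthesis, Odc1 and Sat1, the ratio was 1.29 ± 0.35 in B-IRI PolgD257A and 4.68 ± 1.56 in sham PolgD257A kidneys, and 2.13 ± 0.28 in B-IRI Polg+/+ and 3.94 ± 1.01 in sham Polg+/+ kidneys.

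**Figure D3:**
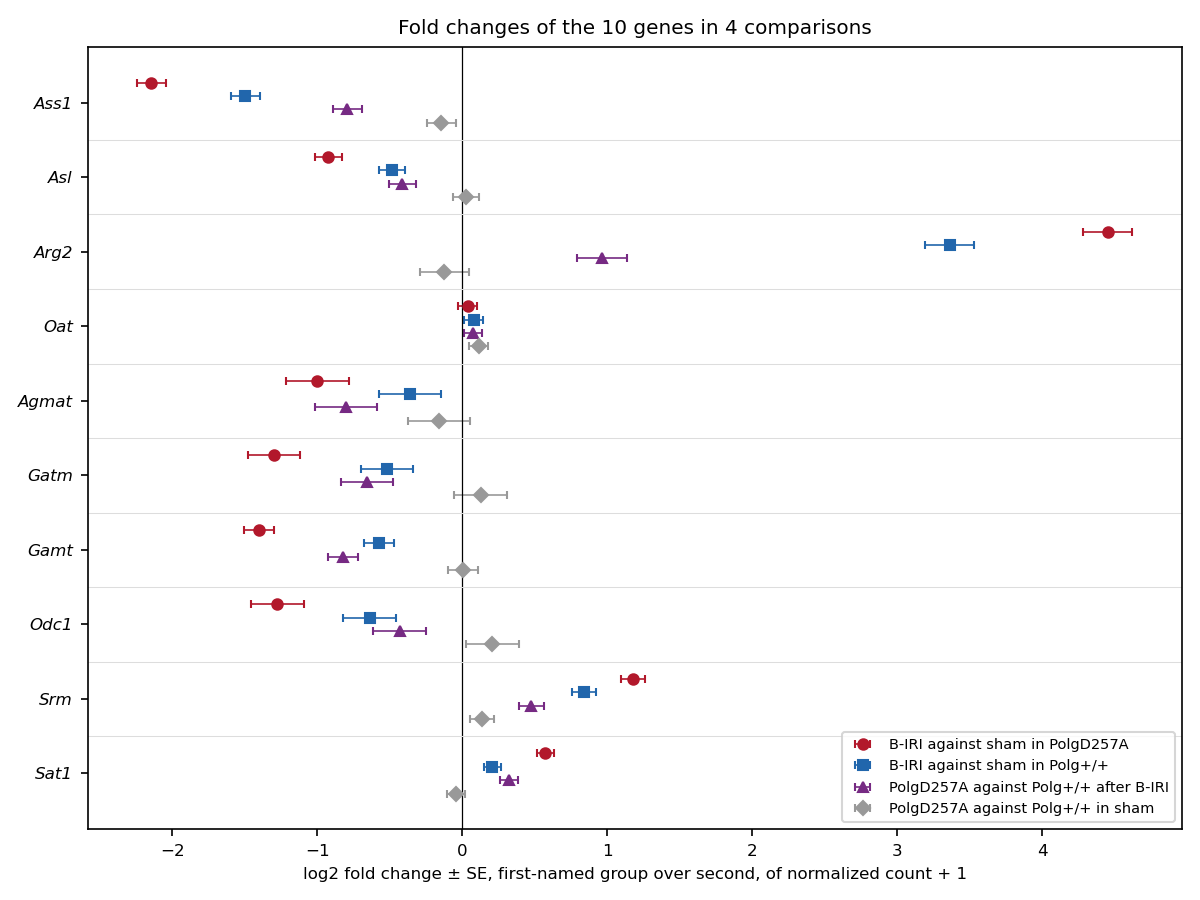
log2 fold change of normalized count + 1 (x axis) of the 10 genes (y axis) in 4 comparisons, each with its SE from the fit over 24 libraries and with the first-named group over the second. Arg2 has the largest changes, at 4.45 in PolgD257A and 3.36 in Polg+/+, Oat stays near 0, and the sham comparison of genotypes stays within 0.21 of 0 for all 10.

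Among injured kidneys, PolgD257A had more Arg2 and less Ass1, Gatm and Gamt RNA than Polg+/+. In B-IRI kidneys 3 members were called higher in PolgD257A than in Polg+/+ (Arg2, Srm and Sat1) and 5 lower (Ass1, Asl, Gatm, Gamt and Agmat), against 14.3% and 15.2% of all genes. Arg2 was 1.95-fold higher in PolgD257A (log2 0.96 ± 0.17). Gamt was 1.77-fold lower (log2 -0.82 ± 0.10) and Ass1 1.73-fold lower (log2 -0.79 ± 0.10). Agmat differed by log2 -0.80 ± 0.21, Gatm by -0.66 ± 0.18 and Asl by -0.41 ± 0.09. Srm differed by log2 0.48 ± 0.08 and Sat1 by 0.32 ± 0.06. All PolgD257A libraries lay outside the Polg+/+ range for 4 members, with Arg2 and Sat1 above and Ass1 and Gamt below, against 10.6% of all genes. Odc1 differed by log2 -0.43 ± 0.18 and was not called. It was called when B-IRI PolgD257A replicate 2 was left out (log2 -0.54), and also when sham PolgD257A replicate 3 or sham Polg+/+ replicate 6, which enter this contrast through the shared spread alone, was left out (log2 -0.43).

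In sham kidneys the genotypes overlapped for all 10 genes. By limma 0 members were called, against 0.0861% of all genes called higher and 0.0402% called lower. The unadjusted p was under 0.05 for 0 members by limma, edgeR and DESeq2. Of all genes 0.631% had 6 PolgD257A libraries outside the range of the 6 Polg+/+ libraries, and 0 of the 10 members did. The log2 differences lay between -0.16 (Agmat) and 0.21 (Odc1).

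The surgery by genotype interaction, the change after B-IRI in PolgD257A minus that in Polg+/+, was called for 2 members upwards (Arg2 and Sat1) and 4 downwards (Ass1, Asl, Gatm and Gamt), against 6.87% and 9.08% of all genes. Under quantile normalization the split was 3 and 2. The values were log2 1.09 ± 0.24 for Arg2, 0.37 ± 0.08 for Sat1, -0.65 ± 0.14 for Ass1, -0.44 ± 0.13 for Asl, -0.78 ± 0.25 for Gatm and -0.83 ± 0.14 for Gamt. The contrasts share groups, so the interaction and the comparison after B-IRI are not separate evidence. Asl lost its call under quantile normalization (log2 -0.34). Gatm lost it there (log2 -0.67), with no filter on low values (log2 -0.78), and without any 1 of 12 libraries, listed with the processing alternatives. Srm had an interaction of log2 0.34 ± 0.12, Odc1 of -0.64 ± 0.26 and Agmat of -0.64 ± 0.30, none of them called.

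The rest of the pathway was read from 48 other genes in 4 lists, of which 41 were high enough to be tested. After B-IRI 14 rose and 16 fell in PolgD257A kidneys, and 11 rose and 11 fell in Polg+/+ kidneys. That is 34.1% and 39.0% of the 41, against 30.2% and 30.3% of all genes, in PolgD257A, and 26.8% each, against 21.4% and 19.8% of all genes, in Polg+/+. The median log2 fold change of the 41 was -0.05 in PolgD257A and 0.04 in Polg+/+ kidneys. Otc, Cps1, Nags, Ckm, Ckmt2, Oaz3 and Slc25a2 were too low. All p-values below are limma's, adjusted by Benjamini-Hochberg over 17430 genes.

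Among arginine and ornithine enzymes, Aldh18a1 and Pycr1, which act in proline synthesis, rose, Prodh and Aldh4a1, which break proline down, fell, and Pycr3, a further enzyme of proline synthesis, fell in PolgD257A kidneys. Of 13 tested, 6 rose and 5 fell in PolgD257A, and 5 rose and 4 fell in Polg+/+ kidneys. Aldh18a1, which makes the precursor shared by proline and ornithine, rose to 449.5 normalized counts in B-IRI PolgD257A kidneys, against 103 in sham PolgD257A kidneys (log2 2.09 ± 0.18, adjusted p = 1.3e-10). In Polg+/+ kidneys it averaged 283 after B-IRI and 83.8 after sham surgery (log2 1.70 ± 0.18, adjusted p = 3.3e-08). Pycr1, a pyrroline-5-carboxylate reductase that completes proline, rose by log2 1.45 ± 0.23 in PolgD257A (adjusted p = 5.6e-06) and 1.15 ± 0.23 in Polg+/+ (adjusted p = 2.6e-04). Pycr3 averaged 1124 in B-IRI and 1319 in sham PolgD257A kidneys (log2 -0.23 ± 0.07, adjusted p = 0.0031), and 1323 in B-IRI and 1243 in sham Polg+/+ kidneys (log2 0.09 ± 0.07, adjusted p = 0.27). Aldh4a1, which carries the last step of proline breakdown, averaged 2446 after B-IRI and 6314 after sham surgery in PolgD257A kidneys (log2 -1.39 ± 0.09, adjusted p = 4.0e-13). Its log2 fold change was -0.76 ± 0.09 in Polg+/+ (adjusted p = 1.1e-07). Prodh, proline dehydrogenase, fell in both (log2 -0.86 ± 0.06, adjusted p = 9.1e-12, and -0.58 ± 0.06, adjusted p = 6.0e-08), and it overlaps another gene on the opposite strand.

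Arg1, the cytosolic arginase, is in the counts of genes that rose, but it entered the fit through B-IRI libraries alone. Its highest value in a sham library was 4.87 normalized counts, below the minimum of 10, so it could enter only by being higher after B-IRI, and no test is given for it. It averaged 21.6 after B-IRI and 1.86 after sham surgery in PolgD257A kidneys, and 11.97 after B-IRI and 2.32 after sham surgery in Polg+/+ kidneys. Nos3, the endothelial nitric oxide synthase that also uses arginine, rose by log2 0.59 ± 0.10 in PolgD257A (adjusted p = 1.3e-05) and 0.33 ± 0.10 in Polg+/+ (adjusted p = 0.0098). On the opposite strand Nos3 overlaps Atg9b and Gm15587, and Nos1 overlaps Gm26995, so their reads may not be told apart. Ddah1, which breaks down the methylarginines that inhibit nitric oxide synthases, fell by log2 0.51 and 0.32 (adjusted p = 6.5e-07 and 8.6e-04). Ddah2, of the same list, was called higher in PolgD257A kidneys, with averages of 403 after B-IRI and 347 after sham surgery. That call was lost under quantile normalization (log2 0.13). In Polg+/+ kidneys Ddah2 averaged 359 after B-IRI and 325 after sham surgery and did not pass. It passed there with library weights (log2 0.17) and without sham Polg+/+ replicate 4 (log2 0.18). Nos1 did not pass in either genotype. Nos2 did not pass in PolgD257A (log2 -0.17 ± 0.28) or in Polg+/+ kidneys (log2 -0.65 ± 0.28, adjusted p = 0.0602). In Polg+/+ it passed with DESeq2 (log2 -0.72), with only the 12 libraries compared, and without B-IRI PolgD257A replicate 2 or 3, sham PolgD257A replicate 2 or sham Polg+/+ replicate 4 or 5 (log2 -0.77 to -0.65).

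The 2 creatine kinase genes tested were called lower in PolgD257A kidneys, and only Ckb in Polg+/+ kidneys. The creatine transporter did not pass in either genotype. Of 3 tested, 2 fell in PolgD257A and 1 in Polg+/+ kidneys. Ckb, the brain-type cytosolic creatine kinase, averaged 2004 in B-IRI and 3655 in sham PolgD257A kidneys (log2 -0.87 ± 0.13, adjusted p = 2.6e-06). In Polg+/+ kidneys it averaged 2813 after B-IRI and 3570 after sham surgery (log2 -0.34 ± 0.13, adjusted p = 0.0384). That call was lost under quantile normalization, with no filter, and without B-IRI Polg+/+ replicate 2, 3, 5 or 6 or sham Polg+/+ replicate 3, 4, 5 or 6 (log2 -0.34 to -0.31). Ckmt1, a mitochondrial creatine kinase that overlaps another gene on the opposite strand, fell in PolgD257A (log2 -0.34 ± 0.11, adjusted p = 0.0094) and had log2 0.05 ± 0.11 in Polg+/+ (adjusted p = 0.77). Its interaction did not pass (log2 -0.38 ± 0.15, adjusted p = 0.0920), nor did that of Ckb (log2 -0.53 ± 0.19, adjusted p = 0.0537). The Ckmt1 interaction passed with library weights (log2 -0.49) and without B-IRI PolgD257A replicate 2 or 3 or sham Polg+/+ replicate 6 (log2 -0.47 to -0.45). The Ckb interaction passed with DESeq2 (log2 -0.52), the filter of 50 (log2 -0.53) and library weights (log2 -0.63). It also passed without B-IRI PolgD257A replicate 2 or 3, sham PolgD257A replicate 3, B-IRI Polg+/+ replicate 2 or sham Polg+/+ replicate 4 (log2 -0.65 to -0.56). Slc6a8, the creatine transporter, averaged 6194 in B-IRI and 5639 in sham PolgD257A kidneys (log2 0.14 ± 0.08, adjusted p = 0.13). It passed without sham PolgD257A replicate 3 (log2 0.22), the highest sham library with 7357 normalized counts, and also under quantile normalization (log2 0.29) and with library weights (log2 0.19).

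Among polyamine enzymes and regulators, the oxidases Smox and Aoc1 rose, while Paox, a further polyamine oxidase, did not pass. Of 15 tested, 6 rose and 5 fell in PolgD257A, and 5 rose and 4 fell in Polg+/+ kidneys. Smox, spermine oxidase, averaged 669 in B-IRI and 193 in sham PolgD257A kidneys (log2 1.79 ± 0.12, adjusted p = 1.8e-12), and 352 in B-IRI and 192 in sham Polg+/+ kidneys (log2 0.85 ± 0.12, adjusted p = 3.5e-06). Aoc1, the diamine oxidase that degrades putrescine and histamine, averaged 434 in B-IRI and 115 in sham PolgD257A kidneys (log2 1.92 ± 0.18, adjusted p = 7.0e-10), and 260.2 and 117 in Polg+/+ kidneys (log2 1.11 ± 0.18, adjusted p = 1.9e-05). Amd1, the decarboxylase that supplies the aminopropyl donor, rose by log2 0.75 ± 0.07 in PolgD257A (adjusted p = 2.0e-09) and 0.46 ± 0.07 in Polg+/+ (adjusted p = 1.9e-05), although it has a near-identical copy, Amd2, with which it may share reads. Eif5a, the translation factor that carries the spermidine-derived residue hypusine, rose by log2 0.44 in PolgD257A (adjusted p = 3.6e-08) and 0.41 in Polg+/+ (adjusted p = 5.8e-07). Mtap, which salvages the by-product methylthioadenosine, rose by log2 0.58 (adjusted p = 1.4e-08) in PolgD257A and 0.41 (adjusted p = 1.1e-05) in Polg+/+.

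Spermine synthase and the ornithine decarboxylase regulators Oaz2 and Azin2 moved the other way. Sms fell by log2 0.48 in PolgD257A (adjusted p = 5.5e-09) and 0.24 in Polg+/+ (adjusted p = 4.8e-04). Oaz2, an antizyme that directs ornithine decarboxylase to degradation, fell by log2 0.45 and 0.23 (adjusted p = 7.3e-09 and 3.9e-04). Azin2, an antizyme inhibitor, averaged 165 in B-IRI and 249.6 in sham PolgD257A kidneys (log2 -0.59 ± 0.10, adjusted p = 7.7e-06), and 155 in B-IRI and 263 in sham Polg+/+ kidneys (log2 -0.75 ± 0.10, adjusted p = 7.9e-07). Sat2, related to Sat1 by sequence, fell in PolgD257A (log2 -0.81 ± 0.09, adjusted p = 2.5e-08) and in Polg+/+ kidneys (log2 -0.39 ± 0.09, adjusted p = 0.0013), while Sat1 was higher. Oaz1, a further antizyme, averaged 7983 in B-IRI and 8934 in sham PolgD257A kidneys and was called lower. In Polg+/+ kidneys it averaged 8712 after B-IRI and 8627 after sham surgery and did not pass. Under quantile normalization its PolgD257A call was lost (log2 0.05), and it was called higher in Polg+/+ (log2 0.105). Azin1 passed in neither genotype, but did so in PolgD257A under quantile normalization (log2 0.14). Azin1, Azin2, Paox and Mtap each overlap a gene on the opposite strand.

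Of 10 transporter genes tested, 2 rose and 4 fell in PolgD257A, and 1 rose and 2 fell in Polg+/+ kidneys. Slc7a1, the widespread cationic amino acid carrier, averaged 592 in B-IRI and 239 in sham PolgD257A kidneys (log2 1.29 ± 0.12, adjusted p = 1.1e-09), and 420 in B-IRI and 208 in sham Polg+/+ kidneys (log2 0.99 ± 0.12, adjusted p = 4.7e-07). The luminal carrier of cystine and cationic amino acids, made of Slc3a1 and Slc7a9, fell in both genotypes. Slc3a1 changed by log2 -1.04 ± 0.07 in PolgD257A (adjusted p = 3.6e-12) and -0.46 ± 0.07 in Polg+/+ (adjusted p = 1.6e-05), and Slc7a9 by -0.64 ± 0.08 (adjusted p = 1.7e-07) and -0.25 ± 0.08 (adjusted p = 0.0139). Slc3a1 overlaps Prepl on the opposite strand. Slc25a15, the mitochondrial ornithine carrier, did not pass in either genotype (log2 -0.07 ± 0.05 and 0.04 ± 0.05). Slc25a29, of the same list, fell in PolgD257A kidneys (log2 -0.67 ± 0.13, adjusted p = 5.9e-05) and did not pass in Polg+/+ kidneys. It was called lower in PolgD257A between genotypes after B-IRI, a call lost with only the 12 libraries compared (log2 -0.41). Atp13a3 rose in PolgD257A kidneys (log2 0.30 ± 0.07, adjusted p = 4.4e-04) and did not pass in Polg+/+ kidneys.

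**Figure D4:**
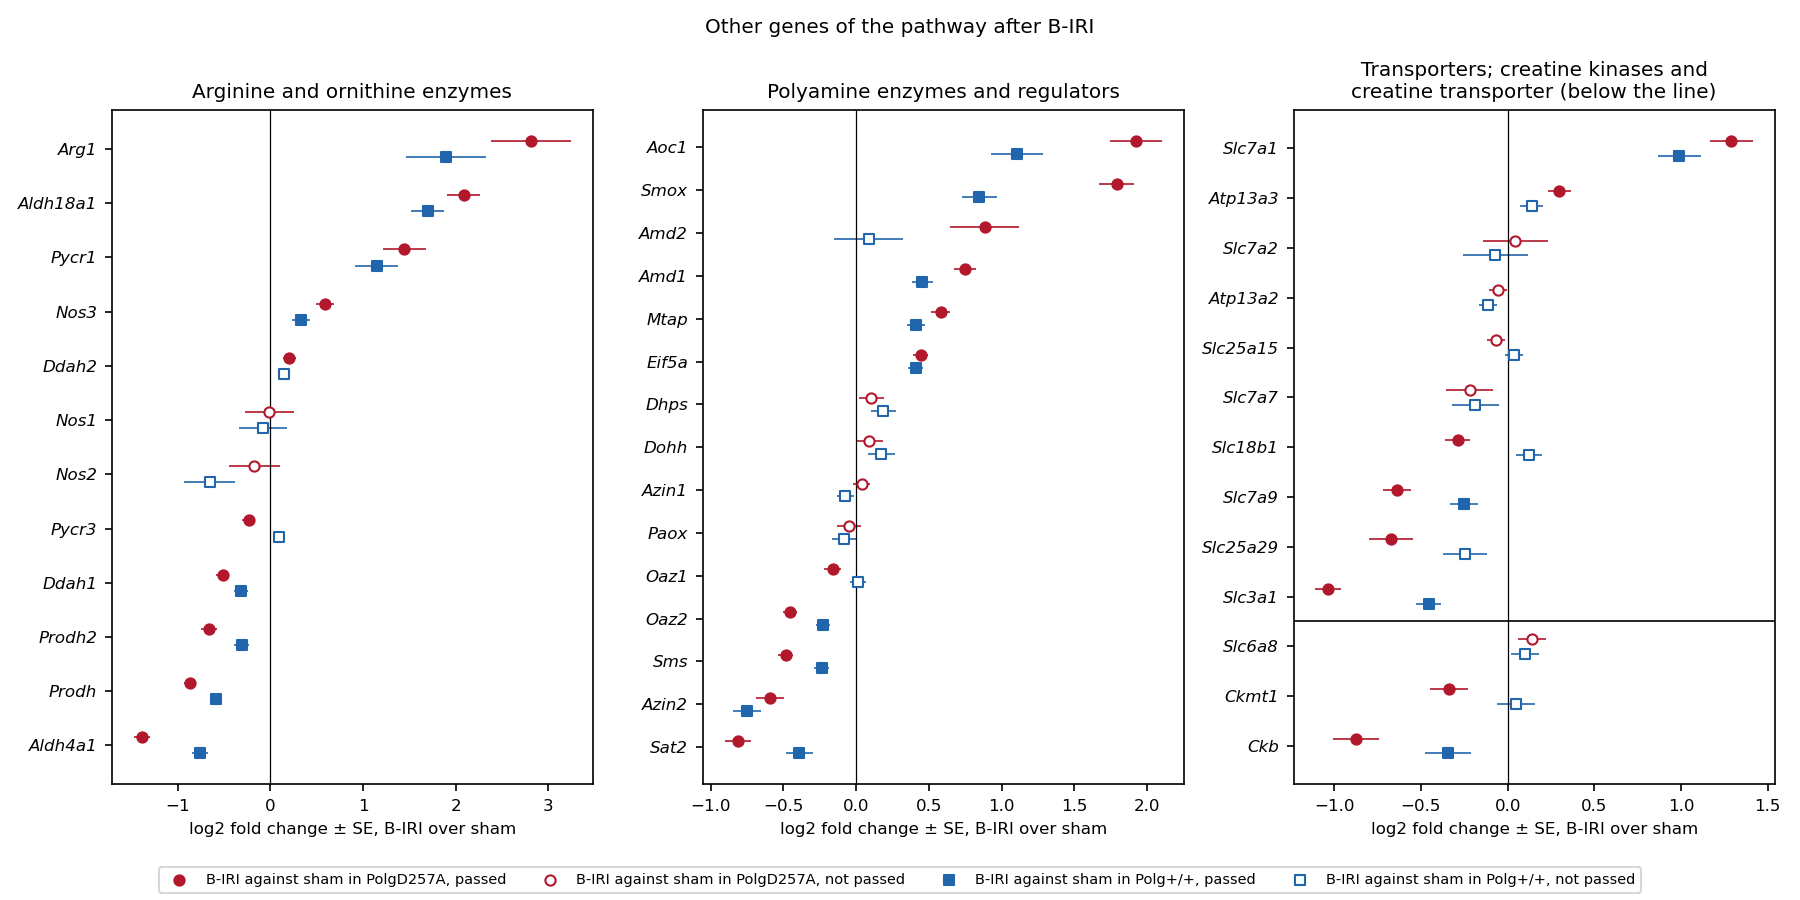
log2 fold change after B-IRI (x axes) with its SE for 40 of the 41 other pathway genes tested (y axes), in PolgD257A (circles) and Polg+/+ kidneys (squares); filled symbols passed limma at an adjusted p of 0.05. Arg1, Aldh18a1, Aoc1, Smox and Slc7a1 lead on the right and Aldh4a1, Sat2, Slc3a1 and Ckb on the left.

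Comparing genotypes in B-IRI kidneys, 8 of the 41 other pathway genes were higher in PolgD257A and 12 lower, against 14.3% higher and 15.2% lower of all genes. Smox averaged 669 in PolgD257A and 352 in Polg+/+ kidneys (log2 0.93 ± 0.12, adjusted p = 3.3e-06). Aoc1 (log2 0.76 ± 0.18, adjusted p = 0.0020), Aldh18a1 (0.68 ± 0.18, adjusted p = 0.0046) and Slc7a1 (0.50 ± 0.12, adjusted p = 0.0028) were higher too. On the lower side stood Aldh4a1 (log2 -0.62 ± 0.09, adjusted p = 7.2e-06), Slc3a1 (-0.56 ± 0.07, adjusted p = 3.2e-06), Ckb (-0.51 ± 0.13, adjusted p = 0.0042) and Sat2 (-0.33 ± 0.09, adjusted p = 0.0071). In sham kidneys 0 of the 41 passed by limma, edgeR or DESeq2. The unadjusted p was under 0.05 for 1 gene, Slc18b1, by limma and by edgeR and for 0 by DESeq2.

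The interaction passed for 12 of the 41, 2 upwards and 10 downwards, against 6.87% upwards and 9.08% downwards of all genes, and under quantile normalization for 4 upwards and 6 downwards. Smox had log2 0.95 ± 0.17 (adjusted p = 6.7e-04) and Aoc1 0.82 ± 0.25 (adjusted p = 0.0281). The Aoc1 call was lost with no filter and without B-IRI Polg+/+ replicate 1 (log2 0.71) or 4 (0.74) or sham PolgD257A replicate 4 (0.76). Aldh4a1 had log2 -0.63 ± 0.12 (adjusted p = 0.0012) and Slc3a1 -0.58 ± 0.10 (adjusted p = 5.7e-04). Slc18b1, a vesicular polyamine transporter, had log2 -0.41 ± 0.11 (adjusted p = 0.0090). It averaged 460 in B-IRI and 562 in sham PolgD257A kidneys (log2 -0.29 ± 0.07, adjusted p = 0.0015), and 551 in B-IRI and 505 in sham Polg+/+ kidneys (log2 0.12 ± 0.07, adjusted p = 0.20).

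Markers of kidney cell types changed alongside these genes. Of 16 proximal tubule markers, all 16 fell after B-IRI in PolgD257A and 12 in Polg+/+ kidneys, with median log2 fold changes of -1.20 and -0.58. The 16 together summed to 185271 to 270839 normalized counts in B-IRI PolgD257A and 568093 to 665299 in sham PolgD257A libraries. The sums were 308274 to 409623 in B-IRI Polg+/+ and 464069 to 605058 in sham Polg+/+ libraries. None of the markers was at 0 in a whole group. Ass1, with log2 fold changes of -2.14 and -1.50, lay further down than this median but within the markers' range of -3.50 to -0.42 in PolgD257A and -1.58 to 0.01 in Polg+/+. In PolgD257A kidneys Slc7a13, Slc22a7 and Miox had log2 fold changes of -3.50, -2.30 and -2.21. Gatm (-1.30 and -0.52) and Gamt (-1.40 and -0.58) lay near the median and Asl (-0.92 and -0.48) above it. In bulk kidney RNA, fewer proximal tubule cells and less of an RNA per cell cannot be told apart. Of 13 markers whose level differed between genotypes after B-IRI, all were lower in PolgD257A, with a median over the 16 of log2 -0.62.

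Of 9 macrophage and monocyte markers 5 rose and 1, Csf1r, fell after B-IRI in each genotype. Their summed level was 3266 to 4641 in B-IRI PolgD257A and 2788 to 3366 in sham PolgD257A libraries, and 2430 to 4071 in B-IRI Polg+/+ and 2837 to 3603 in sham Polg+/+ libraries. Of 4 neutrophil markers 3 were high enough to be tested, and S100a8 and S100a9 were so through B-IRI libraries alone. The 4 summed to 77.2 to 480.2 in B-IRI PolgD257A and 14.8 to 49.7 in sham PolgD257A libraries, and to 37.1 to 122 in B-IRI Polg+/+ and 20.0 to 34.3 in sham Polg+/+ libraries. The 6 tubule injury markers, of which Sox9 needed its B-IRI libraries to enter the fit, summed to 191047 to 372624 in B-IRI PolgD257A and 14289 to 15077 in sham PolgD257A libraries. In Polg+/+ kidneys they summed to 55181 to 189789 after B-IRI and 11978 to 19763 after sham surgery. Of 8 markers of the thick ascending limb and distal nephron, 5 fell in PolgD257A, while in Polg+/+ kidneys 3 fell and 2, Umod and Aqp2, rose. Their sum was 90032 to 146951 in B-IRI PolgD257A and 142568 to 170600 in sham PolgD257A libraries, and 151876 to 172758 in B-IRI Polg+/+ and 144976 to 172200 in sham Polg+/+ libraries. Of 5 endothelial markers 2 rose (Pecam1 and Cdh5) and 2 fell (Kdr and Ehd3) in PolgD257A, and the same 2 fell in Polg+/+. Between genotypes after B-IRI, Pecam1 (log2 0.49), Cdh5 (0.41) and Emcn (0.28) were higher in PolgD257A, as was Nos3 (log2 0.36, adjusted p = 0.0069). Of 4 podocyte markers 1, Wt1, rose in PolgD257A and 0 passed by limma in Polg+/+. The part of any of these shifts in the changes of the 10 genes or of Nos3 was not tested.

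The spread of injury among libraries of one B-IRI group was set against each member. Pearson's r and Spearman's rho with Havcr1 on the log2 scale were computed for 10 members in 2 groups, with an exact two-sided permutation test over 720 orders each. After adjustment over the 20 relations 0 had a p under 0.05 by either measure, and 3 had an unadjusted Pearson p under 0.05. These were Arg2 in B-IRI PolgD257A kidneys (r = -0.83, exact p = 0.0264, adjusted 0.24; rho = -0.77, p = 0.10), Gamt in B-IRI Polg+/+ kidneys (r = -0.83, exact p = 0.0361, adjusted 0.24; rho = -0.77, p = 0.10) and Agmat in B-IRI Polg+/+ kidneys (r = -0.88, exact p = 0.0278, adjusted 0.24; rho = -0.89, p = 0.0333). Without the 2 libraries farthest from the median Havcr1, r was -0.53, -0.67 and -0.56. The 4 libraries left cannot give an exact p below 0.0417. In the other B-IRI genotype, with all 6 libraries, r was 0.71 for Arg2, -0.32 for Gamt and 0.63 for Agmat. Havcr1 itself spanned 25924 to 36062 normalized counts in B-IRI PolgD257A libraries and 5441 to 24888 in B-IRI Polg+/+ libraries. The PolgD257A relations therefore rest on a narrow spread of Havcr1.

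For the 6 members with a log2 fold change beyond 1 in a B-IRI contrast, the most alike genes were sought among 10892 named genes whose mean reached 100 normalized counts. Likeness was the mean absolute difference of log2 values over 24 libraries, each gene centred on its sham Polg+/+ mean. Ass1 lay near Ces1e (0.17) and Amacr (0.17). Nearest to Arg2, at greater distances, were Cbr3 (0.40), Serpina10 (0.42) and Akr1b8 (0.42). Gamt lay near Haao (0.09), Aifm3 (0.10) and Bphl (0.11), and Gatm near Cyp2d26 (0.15), Slc34a3 (0.17) and Xpnpep2 (0.17). Odc1 lay near Cd55 (0.17), Slc17a3 (0.17) and Calml4 (0.19), and Srm near Ybx3 (0.10), Rbpms (0.10) and Ywhah (0.11). Arg2 thus had no neighbour as close as those of the other 5.

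The order of the 10 genes by counts per kilobase was the same in both sham groups, with Ass1, Odc1, Gatm, Sat1, Oat, Asl, Gamt, Srm, Agmat and Arg2 from high to low. Neighbours at the low end lay within their spread in sham PolgD257A kidneys. There Agmat averaged 46.7 ± 6.78 and Arg2 38.1 ± 6.86 per kilobase, and Gamt 362 ± 48.2 and Srm 316 ± 27.1. In B-IRI PolgD257A kidneys Sat1, with 3289 ± 281, stood above Gatm with 2426 ± 816, and in B-IRI Polg+/+ kidneys Sat1, with 2629 ± 180, stood below Gatm with 3726 ± 860. The exon lengths behind these levels come from an annotation that differs from the one used for counting.

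The authors' deposited table, which lists 1401 selected genes with a shrunken log2 fold change, holds 4 of the 10 members. All of its 1345 genes tested here carry the sign of PolgD257A against Polg+/+ after B-IRI. In the authors' deposited table Arg2 has a log2 fold change of 0.90, Ass1 of -0.77, Gamt of -0.80 and Agmat of -0.56. The authors' deposited table also lists 5 of the other pathway genes, with 0.89 for Smox, 0.66 for Aoc1, 0.58 for Aldh18a1, -0.59 for Aldh4a1 and -0.55 for Slc3a1.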

How the data were processed

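RNA from 24 mouse kidneys was extracted with RNeasy kits and 2 µg went into NEBNext Ultra II libraries, per the labels. FastQC, STAR, SAMtools, featureCounts and DESeq2 with GRCm38.p6 are listed in the submitters' processing notes without versions. Neither labels nor file headers say whether counting used the strand.

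The deposited signal values are normalized counts, made by the authors by dividing each gene's count by 1 size factor per library (0.740 to 1.31). Multiplied back, 100% of values came out whole (tolerance 0.001), and edgeR and DESeq2 used those reads. The other deposited table gives the authors' mean signal, shrunken log2 fold changes with standard errors, and s-values (read like an adjusted p-value) for selected genes. Columns were matched to samples by group and number, and reading Ctrl, Mut and SurgBIR as Polg+/+, PolgD257A and B-IRI is inferred from the names.

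Genes were tested with limma's trend method (limma 3.58.1 in R 4.3.3), fitting 4 group means to log2 values with a pseudocount of 1. All 24 libraries entered, and a gene was kept if 6 or more libraries reached 10 normalized counts (17430 genes). Each of 5 contrasts had its own Benjamini-Hochberg adjustment. The pseudocount understates changes of low genes. The labels call samples biological replicates; p-values measure the spread between them. The members, gene lists and markers were chosen with earlier results of these data known. Named genes are all members, up to 3 per list, contrast and direction by smallest adjusted p, those needed to say which did not pass, the 3 most alike genes, and Polg and Havcr1 (2 genes the rule selects are not reported here); Xist, Ddx3y and single markers were added after values were seen.

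Settings varied were the pseudocount (0.5 or 5), the low-value filter (none or 50), TMM or quantile scaling, edgeR 4.0.16 and DESeq2 1.42.0 as tests, a fit of just the 12 libraries compared, library weights, the replicate block, and leaving out each library. Symbols came from the supplied gene tables and Pycr3 was matched through its synonym Pycrl. Gene coordinates and exon lengths are from GENCODE M21, whose ID versions match the files for 35 of 52083 IDs, and promoter sequences are from RefSeq (GRCm38.p6). Python 3.11.15, NumPy 2.4.6, pandas 2.3.3, SciPy 1.17.1 and Matplotlib 3.10.9 were used.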

Additional observations from a re-analysis of the deposited data

Results flagged for a closer look

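For each member and group of 6, the highest and lowest libraries were checked for a gap to the rest larger than Dixon's 95% critical value for 6 samples. Of 40 such groups 5 held a library that stood apart, where chance gives about 1 in 20. Sham PolgD257A replicate 3 was high for Odc1 (57830 normalized counts) and for Gatm (22111). B-IRI PolgD257A replicate 2 was high for Odc1 (20652). Sham PolgD257A replicate 6 was high for Sat1 (7050), and sham PolgD257A replicate 1 was low for Srm (422). All 5 are in PolgD257A groups.

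For 6 members the fitted surgery by genotype interaction, the change after B-IRI in PolgD257A minus that in Polg+/+, passed the threshold. Of all genes tested, 15.9% passed for the interaction in either direction. The members were chosen with these values known, so their count is a description. The log2 values were 1.09 for Arg2, 0.37 for Sat1, -0.65 for Ass1, -0.44 for Asl, -0.78 for Gatm and -0.83 for Gamt. For 12 of the other pathway genes the interaction passed in limma as well. It was positive for Smox (0.95) and Aoc1 (0.82). It was negative for Aldh4a1 (-0.63), Slc3a1 (-0.58), Sat2 (-0.42), Slc18b1 (-0.41), Slc7a9 (-0.38), Prodh2 (-0.35), Pycr3 (-0.33), Prodh (-0.28), Sms (-0.25) and Oaz2 (-0.22).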

How the results depend on the processing

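The numbers of members and of other pathway genes called stayed within 1.5 times their value under all 11 alternatives other than leaving out a library. Of 540 member fold changes under these, 7 moved by more than 1 SD, all under quantile normalization, and 0 called ones reversed. In PolgD257A kidneys Ass1 was then at log2 -1.73, Odc1 at -0.83, Sat1 at 0.78 and Oat at 0.16, and in Polg+/+ kidneys Ass1 was at -1.25. Sat1 was at 0.45 between genotypes after B-IRI and at 0.54 for the interaction. The cause was not tested. Srm gained the interaction call under pseudocount 5, the filter of 50, quantile normalization, library weights, edgeR and DESeq2. Odc1 gained the call between genotypes after B-IRI with only the 12 libraries compared and with library weights, which also gave Agmat the interaction call. The interactions of Prodh, Prodh2 and Oaz2 lost their calls with no filter and under quantile normalization, and that of Slc7a9 under quantile normalization.

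The replicate number was entered as a replicate block although it does not pair the libraries. Same-number correlations between groups ran from -0.33 to 0.17, and 4 of 36 same-number pairs were best matches. With the replicate block 9 members were called in PolgD257A and 8 in Polg+/+ kidneys after B-IRI, as without it, and Ckb in Polg+/+ and Mtap between genotypes lost their calls while Nos2 in Polg+/+ and Prodh2 between genotypes gained one.

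Leaving out each library gave 9 members called after B-IRI in PolgD257A, 7 to 8 in Polg+/+, 8 to 9 between genotypes after B-IRI, 0 between genotypes after sham surgery and 5 to 9 for the interaction. For the other pathway genes the counts were 30 to 31, 21 to 25, 17 to 23, 0 and 8 to 14. With all 24 libraries, the shares of all genes called were 60.4%, 41.2%, 29.5%, 0.126% and 15.9%, in the same order. The Gatm interaction (log2 -0.79 to -0.65) lost its call without any 1 of 12 libraries, which were replicates 4 and 6 of B-IRI PolgD257A, 3 and 6 of sham PolgD257A, 1, 2, 4 and 5 of B-IRI Polg+/+ and 1, 3, 4 and 5 of sham Polg+/+. The Srm interaction gained one (log2 0.36 to 0.40) without replicate 2 or 5 of B-IRI PolgD257A, 5 of sham PolgD257A, 3 or 6 of B-IRI Polg+/+ or 6 of sham Polg+/+. Without B-IRI PolgD257A replicate 2 the interactions of Odc1 (log2 -0.75) and Agmat (-0.83) gained calls. The interaction was lost without any 1 of 17 libraries for Prodh2, of 12 for Prodh, of 3 for Sat2 (B-IRI PolgD257A replicate 1, sham PolgD257A replicate 6 and B-IRI Polg+/+ replicate 1; log2 -0.40 to -0.37) and of 2 for Oaz2 (B-IRI PolgD257A replicate 1 and B-IRI Polg+/+ replicate 5; log2 -0.21 to -0.20). The interaction needs all 24 libraries, so it has no value with only the 12 compared. Agmat, with 18.3 to 96.6 normalized counts, is the member whose depth limits its precision most.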
